A study of Mus musculus with 12 samples.

Results

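The circadian genes described here are Nfil3, Nr1d1, Nr1d2, Bhlhe40, Per1, Per2, Cry1, Arntl, Clock and Dbp, 10 transcriptional regulators of the clock that have been linked to T helper 17 (Th17) cells. Each was taken as its gene span in GRCm38 plus 5 kb on each side and all acetylation peaks and tested regions there were kept. The 10 genes held 25 of the 40909 tested regions of the series, against 13157 protein-coding genes that had a tested region in all. In each library 27 to 32 peaks lay over them, of 39264 to 43507 peaks called.

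The series measured H3K9/14ac, the acetylation of lysines 9 and 14 on histone H3 that marks active promoters and enhancers, by RELACS, a ChIP-seq protocol that barcodes the chromatin of each sample inside its nuclei before samples are pooled. The 3 KO libraries came from Th17 cells of C57BL/6 mice with floxed Slc2a3 alleles and a Cd4-cre transgene (Slc2a3-fl/fl Cd4-cre), and the 3 WT libraries came from wild type C57BL/6 Th17 cells. Slc2a3 encodes the glucose transporter GLUT3. In both groups naive CD4+ T cells were polarized toward Th17 in culture for 3 days and then stimulated with PMA and ionomycin for 3 h, with Bref A and Monensin present. Cd4-cre acts in T cells from the thymus onward, so the deletion preceded the culture. The labels do not say whether the wild type cells carried a floxed allele or the Cre, whether libraries came from separate mice, or at what time of day cells were taken. The p-values of library measures therefore reflect a spread that may be technical. All 6 samples shared 1 immunoprecipitation. The 6 inputs were left out.

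The clock is a set of linked feedback loops. The activators CLOCK and BMAL1 (the product of Arntl) bind E-boxes and switch on the Per, Cry, Nr1d1, Nr1d2, Bhlhe40 and Dbp genes, and the PER and CRY proteins then inhibit that pair. In a second loop the nuclear receptors REV-ERBα and REV-ERBβ (Nr1d1, Nr1d2) repress Arntl through the elements that ROR receptors activate, and at D-boxes the activator DBP competes with the repressor NFIL3. In mouse CD4 T cells NFIL3 restrains Th17 differentiation, REV-ERBα represses Nfil3, and BHLHE40 supports cytokine production by helper T cells.

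RefSeq (GRCm38.p6) lists 12 start windows, each of 250 bases before and 50 bases from the start on, for 8 of the 10 genes. Bhlhe40 and Per2 have no entry there. The windows were searched on both strands for the E-box CACGTG, the E'-box CACGTT, the D-boxes TTATGTAA and TTACGTAA, the core AGGTCA of ROR and REV-ERB sites, the cAMP response element TGACGTCA and the AP-1 site TGACTCA. The 6 windows below are shown because they lie at the starts whose acetylation is described next and hold all matches but 1, the ROR core of a Clock window. Capitals mark the matches, none of which overlaps another, and an E'-box or ROR core on the opposite strand reads AACGTG or TGACCT. Positions are those of the bases relative to the start, which counts as 0.
Nfil3: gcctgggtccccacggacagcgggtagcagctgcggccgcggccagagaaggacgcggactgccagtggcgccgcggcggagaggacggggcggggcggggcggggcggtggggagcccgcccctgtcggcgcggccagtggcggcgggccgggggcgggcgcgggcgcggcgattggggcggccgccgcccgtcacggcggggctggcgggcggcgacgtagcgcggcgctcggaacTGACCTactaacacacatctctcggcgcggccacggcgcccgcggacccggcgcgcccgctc
Nr1d1: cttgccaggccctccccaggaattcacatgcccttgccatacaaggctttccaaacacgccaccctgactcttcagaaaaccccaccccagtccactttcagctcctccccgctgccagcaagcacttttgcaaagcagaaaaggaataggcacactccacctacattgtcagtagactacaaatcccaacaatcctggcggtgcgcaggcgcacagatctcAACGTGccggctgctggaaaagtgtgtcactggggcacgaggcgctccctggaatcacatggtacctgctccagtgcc
Nr1d2: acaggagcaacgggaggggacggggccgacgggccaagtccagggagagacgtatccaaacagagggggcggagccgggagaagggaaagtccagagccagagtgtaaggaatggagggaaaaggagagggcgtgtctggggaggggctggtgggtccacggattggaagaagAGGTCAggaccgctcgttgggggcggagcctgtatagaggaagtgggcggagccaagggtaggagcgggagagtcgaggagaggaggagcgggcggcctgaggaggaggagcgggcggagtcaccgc
Cry1: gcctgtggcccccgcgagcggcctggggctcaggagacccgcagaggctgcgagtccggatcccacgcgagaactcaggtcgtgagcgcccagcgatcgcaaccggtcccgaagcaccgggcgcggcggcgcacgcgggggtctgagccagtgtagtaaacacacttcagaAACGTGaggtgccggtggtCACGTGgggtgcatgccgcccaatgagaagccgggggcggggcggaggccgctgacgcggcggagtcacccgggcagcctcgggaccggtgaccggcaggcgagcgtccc
Per1: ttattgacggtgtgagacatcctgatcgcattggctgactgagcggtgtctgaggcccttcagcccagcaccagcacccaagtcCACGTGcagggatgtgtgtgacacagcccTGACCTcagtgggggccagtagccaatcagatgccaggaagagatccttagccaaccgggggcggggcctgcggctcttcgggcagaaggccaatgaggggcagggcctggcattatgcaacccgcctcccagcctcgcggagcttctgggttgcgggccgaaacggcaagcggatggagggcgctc
Arntl: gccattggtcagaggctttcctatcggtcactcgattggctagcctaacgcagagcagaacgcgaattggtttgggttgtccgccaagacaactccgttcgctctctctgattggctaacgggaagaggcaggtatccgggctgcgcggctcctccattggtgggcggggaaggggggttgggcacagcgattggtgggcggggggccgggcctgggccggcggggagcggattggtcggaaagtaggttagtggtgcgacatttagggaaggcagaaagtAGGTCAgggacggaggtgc
On GRCm38 these windows are chr13:52980990-52981289 (minus strand) for Nfil3, chr11:98775328-98775627 (minus strand) for Nr1d1, chr14:18239057-18239356 (minus strand) for Nr1d2, chr10:85185005-85185304 (minus strand) for Cry1, chr11:69098699-69098998 (plus strand) for the first of 2 Per1 starts and chr7:113207261-113207560 (plus strand) for the second of 2 Arntl starts. Cry1 held an E-box at -60 to -55 and an E'-box at -79 to -74. Per1 held an E-box at -166 to -161 and a ROR core at -137 to -132. The Nr1d1 window held an E'-box at -28 to -23. ROR cores lay at -12 to -7 in Nfil3, at -77 to -72 in Nr1d2 and at 31 to 36 in Arntl. Among all 32817 RefSeq windows of this length, 7.15% held an E-box, 4.69% an E'-box and 16.3% a ROR core. None of the 12 windows held a D-box, a cAMP response element or an AP-1 site, which 1.05%, 1.79% and 5.2% of all windows held. In GC content the Nfil3 window stood at 81.7%, Cry1 at 72.3%, Nr1d2 at 65.7%, Per1 at 63.3%, Arntl at 61.7% and Nr1d1 at 56.3%.

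Recovered from the peak lists, the mean coverage by fragments was 1.85, 2.29 and 1.92 in the KO libraries, against 3.99, 3.48 and 2.97 in the WT libraries. Peaks covered 53.7 to 58.4 Mb per KO library and 65.2 to 70.5 Mb per WT library, so a covered length has to be read beside the shallower KO libraries. KO replicate 3 stood apart with 11 peaks on chromosome Y, against 1 or 2 in each other library, and all 10 genes are autosomal. The deleted gene, Slc2a3, was lower in KO in 8 of its 9 tested regions, and its region of lowest FDR stood at a log2 fold change of -1.80 in the authors' deposited table. All 5 T cell markers were covered in all 6 libraries. The 5 Th17 markers were covered over a summed 40692 to 51384 bp in KO and 63930 to 74271 bp in WT, and Il17f had no peak in KO replicate 1. The markers did not all differ. All KO libraries lay below all WT libraries for Il17a (2634 to 4567 bp against 12098 to 13592 bp), Il17f and Il23r. Ccr6 overlapped between the groups, at 14816 to 16342 bp in KO and 15410 to 16331 bp in WT. Ms4a1 and Pax5, which define B cells, and Lyz2 and Adgre1, which define myeloid cells, were at 0 in all 6 libraries. The summed lengths were 5840 to 7022 bp in KO and 7402 to 8234 bp in WT over the 4 B cell markers, 1 of them covered, and 4821 to 5700 bp in KO and 4616 to 6583 bp in WT over the 4 myeloid markers, 2 of them covered. The part of the Th17 marker difference in the results below was not tested. In bulk chromatin, fewer cells carrying the mark and less mark per cell cannot be told apart.

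The authors' deposited table called regions lower in KO at the starts of Nr1d2, Per1, Cry1, Arntl and Clock and over Dbp, and higher in KO over Nfil3, over Nr1d1 and at a site inside Cry1. Relative to the coverage of each library, the strongest peaks of Nr1d2, Per1, Arntl and Clock overlapped between the groups, with mean log2 differences (KO minus WT) of 0.12, 0.11, 0.14 and -0.18. The strongest Arntl peak lay past the start, in a neighbouring region that was not called. The Per1 summits lay within the called region but varied between libraries, from -3.47 to -0.388 kb relative to the nearest start. At an FDR under 0.05 the authors' deposited table called 16 of the 25 regions, 11 of them (44.0% of 25) lower in KO and 5 (20.0%) higher. Over all 40909 regions it called 59.0%, with 46.3% lower and 12.7% higher, so the share of lower regions was close to the background. The median log2 fold change (KO over WT) of the 25 regions was -0.49 in the authors' deposited table, against -0.62 over all regions. Nr1d2, Per1, Per2, Arntl, Clock and Dbp had lower regions alone, Nfil3 and Nr1d1 had higher regions alone, Cry1 had 1 of each and Bhlhe40 had neither. Among all genes with a tested region 63.6% had lower regions alone, 8.0% higher alone, 7.75% both and 20.7% neither. Had libraries been scaled by their mean coverage, each log2 fold change would be 0.30 higher and the median over all regions -0.32. A constant shift of that size could not turn the direction of any of the 16 called regions, since the lower ones stood at -0.71 or below. The FDR was not computed again, so the calls were not tested at that scaling.

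**Figure D1:**
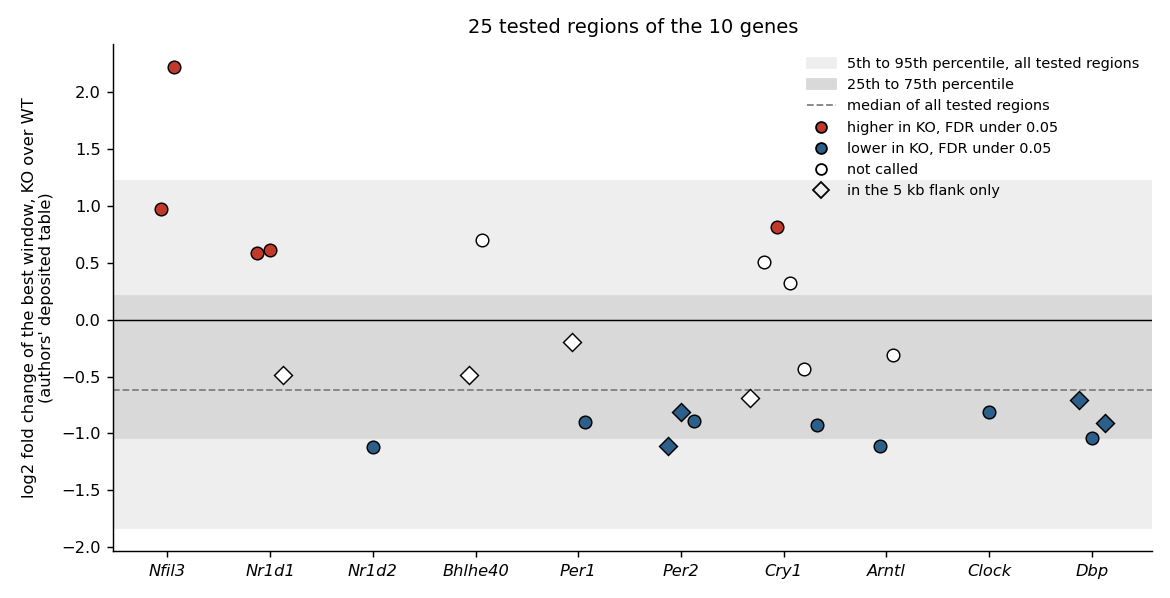
Log2 fold change, KO over WT, of the best window in each of the 25 tested regions (authors' deposited table), by gene; filled points passed an FDR of 0.05, diamonds lie in a 5 kb flank alone, and the shaded bands give the 25th to 75th and 5th to 95th percentiles of all tested regions. The long Nfil3 region, at 2.22, lies above the upper band, while the lower regions lie near or below the median of -0.62.

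Per library, a pair of measures was taken for each gene. The first was the length covered by peaks. The second was the relative height of the strongest peak, which is its number of overlapping fragments divided by the mean coverage of the library, over the peaks whose summit lay within the gene span or its 5 kb flanks. With 3 libraries against 3 the exact permutation test (two-sided, difference in means) reaches no p below 0.1, which is the value for groups that do not overlap. In covered length, all 3 KO libraries lay below all 3 WT libraries for 5 genes (Nr1d1, Nr1d2, Bhlhe40, Per2 and Arntl) and above them for 1 (Nfil3). Among 14016 protein-coding genes with a peak, 41.3% had KO below WT and 6.18% had KO above WT in the same sense, and the median ratio of KO to WT length was 0.826. In relative height, KO lay above WT for Nfil3, Nr1d1 and Bhlhe40 and below WT for Cry1 and Dbp, of 9 genes with a peak in each library. That was the case for 20.4% (above) and 17.4% (below) of 11844 protein-coding genes. Without KO replicate 3, the counts were 6 genes below and 1 above in covered length, and 3 below and 3 above in relative height.

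**Figure D2:**
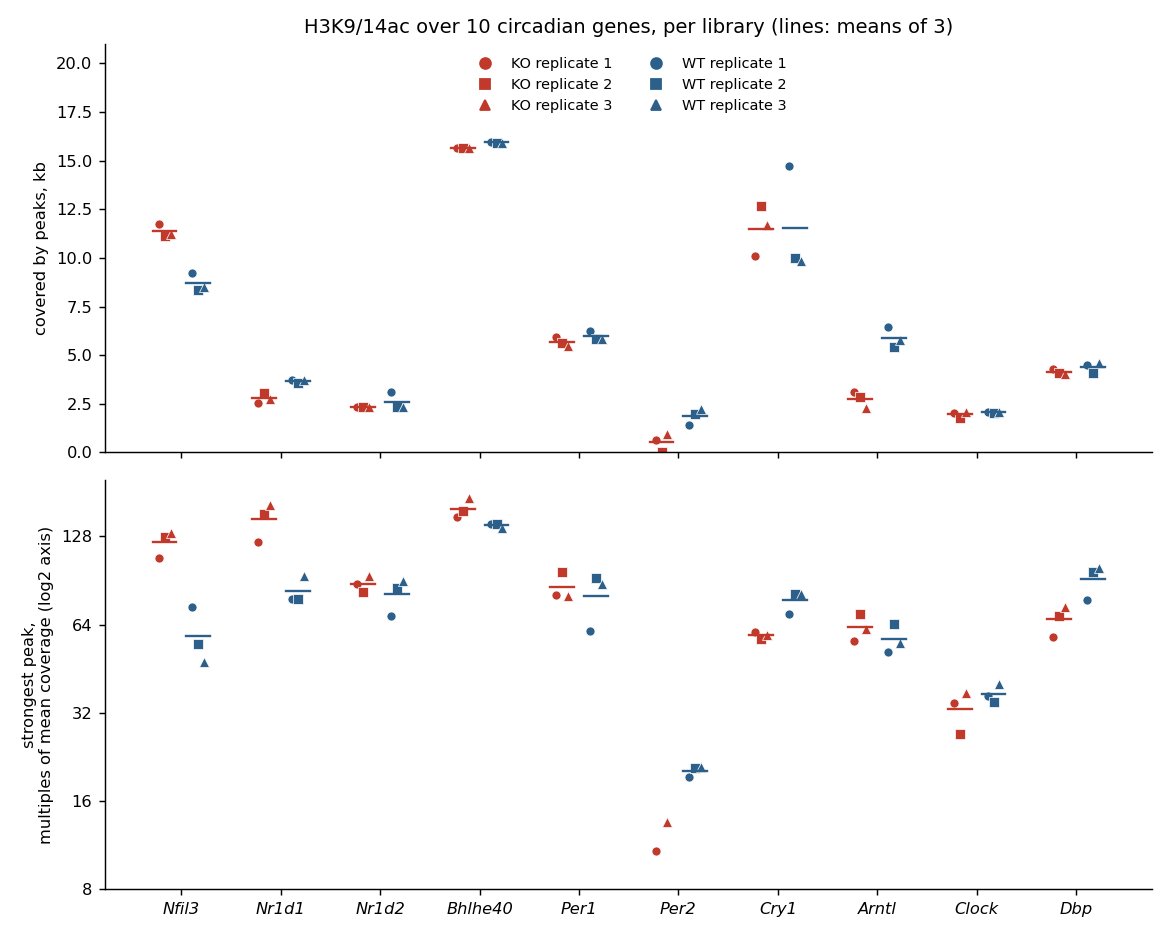
Covered length in kb (top) and relative height of the strongest peak as a multiple of mean coverage on a log2 axis (bottom) for each gene, with the 3 KO libraries left of the 3 WT libraries and lines at the means of 3. Nfil3 is the gene whose KO points lie above its WT points in both panels; Per2 had no peak in KO replicate 2, so no KO mean is drawn below.

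Nfil3, the D-box repressor, had the largest excess in KO of the 10 genes both in relative height and in the authors' deposited table. It lies on chromosome 13 at 52967209 to 52982878 (minus strand), and a single acetylated domain ran from upstream of its start to several kb into the gene. Relative height at its summit was 108, 127 and 131 in KO replicates 1 to 3, against 73.5, 54.9 and 47.5 in WT replicates 1 to 3. The lowest KO library stood well above the highest WT library, and the mean log2 difference was 1.08 ± 0.20 (SE, n = 3 each, exact permutation p = 0.1). The RefSeq start, at 52981039, lies within the gene span. The summits lay 3.46 to 3.94 kb past this start in all 6 libraries, not at the start window printed above. Peaks covered that window in full in all 6 libraries. The main KO peaks were unbroken over 11450, 10684 and 10851 bp. In WT replicate 1 the domain was 1 peak of 9207 bp, and in WT replicates 2 and 3 it was split into 3 and 4 peaks. Covered length was 11750, 11149 and 11243 bp in KO and 9207, 8373 and 8494 bp in WT, with means of 11381 ± 323 bp in KO and 8691 ± 451 bp in WT (SD, n = 3 each, exact permutation p = 0.1). The KO libraries thus covered more of Nfil3 than the WT libraries did, although they were the shallower ones. The tested region of 10.8 kb (52972351 to 52983150) stood at a log2 fold change of 2.22, with an FDR of 3.95e-20, in the authors' deposited table, where 54 of its 72 windows went up and 0 went down. Of all tested regions 0.91% had a higher fold change. Its best window lay 7.11 kb past the RefSeq start, towards the far edge of the domain. Next to it, the region at 52971451 to 52971900 had peaks in 3 KO and 0 WT libraries, which 2.6% of all regions had, and stood at 0.97, with an FDR of 0.0171, in the authors' deposited table. Fragment heights not divided by coverage overlapped between groups, at 200, 290 and 253 fragments in KO and 293, 191 and 141 fragments in WT, with a log2 difference of 0.30 (exact permutation p = 0.5).

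Dbp, the D-box activator and a classical output of CLOCK and BMAL1, moved the other way from Nfil3. All 3 of its regions were lower in KO, 1 in the gene itself and 2 over its neighbours. The region in the gene body (45705751 to 45708600 on chromosome 7) was lower, at -1.04 on the log2 scale (FDR 7.41e-06), in the authors' deposited table, with 12 of 19 windows down. Relative height there was 35.7, 35.9 and 44.2 in KO, against 54.4, 68.1 and 64.3 in WT, so the groups did not overlap. The strongest peak over Dbp lay about 0.6 kb before its start, where the annotation has the end of Car11, a carbonic anhydrase related gene. Its relative height was 57.9, 68.6 and 73.3 in KO and 77.7, 96.9 and 100 in WT. All 3 KO libraries stood below all 3 WT libraries, at a log2 difference of -0.46 ± 0.15 (SE, n = 3 each, exact permutation p = 0.1). That region (45703951 to 45704850) was lower, at -0.71 (FDR 0.000551) in the authors' deposited table. The Dbp start window lay between these peaks and held none in any library. The third region, over Sphk2, began 4098 bp past the gene span and was lower, at -0.91 (FDR 0.000695), in the authors' deposited table. Both its best window, at 45719101 to 45719250, and its summits lay beyond the flank. Relative heights at these summits were 104, 122 and 114 in KO and 97.3, 94.6 and 90.6 in WT. Counted by overlap alone, wherever the summit lay, that peak was the tallest over Dbp in all KO libraries and in WT replicate 1, and the log2 difference of the strongest peak turned to 0.21 (exact permutation p = 0.1, n = 3 each). Covered length over Dbp was 4279, 4091 and 4054 bp in KO and 4518, 4079 and 4622 bp in WT, and the groups overlapped (exact permutation p = 0.3, n = 3 each).

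The REV-ERB genes differed from each other. Nr1d1, which encodes REV-ERBα (chromosome 11, 98767932 to 98775377, minus strand), had a signal in KO that was taller relative to coverage and shorter in length covered by fragment peaks. Relative height at its strongest peak was 122, 153 and 164 in KO and 78.0, 78.2 and 93.6 in WT. Every KO library exceeded every WT library, with a log2 difference of 0.81 ± 0.15 (SE, n = 3 each, exact permutation p = 0.1). Not divided by coverage, the heights of 226, 349 and 315 fragments in KO and 311, 272 and 278 fragments in WT overlapped, with a log2 difference of 0.03 (exact permutation p = 0.9). The summit lay 1.83 to 1.96 kb inside the gene. That region (98773051 to 98773800) was higher by 0.59 (FDR 0.00521) in the authors' deposited table, and the next one (98774251 to 98775450), which reaches the start, by 0.61 (FDR 0.032). Beyond the start, the region at 98775601 to 98776800 was not called, at -0.49 (FDR 0.153) in the authors' deposited table. In each WT library 1 peak of 3574 to 3728 bp joined all 3 regions, whereas the KO libraries had 4, 2 and 2 separate peaks. Covered length was lower in all KO libraries, at 2539, 3064 and 2728 bp in KO and 3728, 3574 and 3728 bp in WT (exact permutation p = 0.1, n = 3 each). On average KO had 0.755 of the WT length, against a median of 0.826 over protein-coding genes with a peak. With single-read peaks the difference shrank from -900 bp to -226 bp (exact permutation p = 0.6). The start window with its E'-box lay under a peak in all libraries but KO replicate 1. Thra, the thyroid hormone receptor gene next to Nr1d1, lies within the 5 kb flank.

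Nr1d2, which encodes REV-ERBβ (chromosome 14, 18204056 to 18239106, minus strand), had 1 tested region, at its start (18237901 to 18240000). It was lower, at -1.12 (FDR 4.45e-05) in the authors' deposited table, and 78.7% of all regions had a higher fold change. Of its 14 windows, 2 were counted as going down and 0 as going up in the authors' deposited table. At the summit, relative height was 87.7, 82.6 and 93.6 in KO, against 68.4, 85.1 and 89.9 in WT. These groups overlapped, with a log2 difference of 0.12 ± 0.13 (SE, n = 3 each, exact permutation p = 0.5). Covered length was 2315, 2316 and 2316 bp in KO and 3099, 2352 and 2341 bp in WT (exact permutation p = 0.1), and the gap to WT replicates 2 and 3 was small. The WT lengths include a low inner peak of 748 bp in replicate 1 and 275 bp in replicate 3. The start peak of WT replicate 3, at 2066 bp, was shorter than that of every KO library. With peaks of a -log10 q-value of at least 5 alone, the difference was -190 bp (exact permutation p = 0.7).

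The activator genes Arntl and Clock each had a region at the start that was called lower in KO in the authors' deposited table, while relative heights overlapped between the groups. In Arntl (chromosome 7, 113178471 to 113314126, plus strand) the region just before the printed start window, at 113206501 to 113207250, was lower, at -1.11 (FDR 0.00406) in the authors' deposited table, with 1 of 5 windows down. Relative height there was 52.5, 45.0 and 33.3 in KO and 45.1, 50.3 and 45.1 in WT, and KO replicate 1 had the highest value of all 6 libraries. Its neighbour past the start (113207401 to 113208750) was not called, at -0.31 (FDR 0.667) in the authors' deposited table. The strongest peak lay past the start, with relative heights of 56.3, 69.5 and 61.9 in KO and 51.4, 64.4 and 55.2 in WT, and these overlapped (exact permutation p = 0.4, n = 3 each). Arntl differed by the most base pairs in covered length, at 3112, 2854 and 2279 bp in KO and 6434, 5445 and 5769 bp in WT. On average KO had 0.467 of the WT length, and the groups did not overlap (exact permutation p = 0.1, n = 3 each). Much of that gap came from inside the gene. Around 56.3 kb from the start, at 113262354 to 113265251, no KO library had a peak, against peaks with relative heights of 15.5, 19.3 and 16.2 in the WT libraries. Of 56764 loci formed by joining overlapping peaks over all libraries, 5.04% had that pattern and 2.11% the opposite, and the 10 genes had 1 and 0 of 36. No tested region of the authors' table and no peak called on single reads lay at that locus, so it rests on the fragment peaks alone. The WT peaks there were 62, 67 and 48 fragments high before division. With single-read peaks the Arntl difference shrank to -80 bp (exact permutation p = 0.1). A second inner site, 78.3 kb from the start, had a peak in each library, with relative heights of 13.0, 9.18 and 8.32 in KO and 14.0, 16.1 and 18.9 in WT. The KO peaks listed at that second site were 24, 21 and 16 fragments high. The part of the lower KO depth in the peaks not called at the first site was not tested.

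Clock (chromosome 5, 76209868 to 76305603, minus strand) had 1 tested region, over its starts (76303351 to 76305450), lower, at -0.81 (FDR 0.0109) in the authors' deposited table, with 10 of 14 windows down. Its signal was low beside the other genes, Per2 aside. Relative height was 34.6, 27.1 and 37.4 in KO and 36.4, 34.8 and 40.1 in WT, and the groups overlapped (log2 difference -0.18 ± 0.15, SE, n = 3 each, exact permutation p = 0.4). Covered length was 2031, 1758 and 2091 bp in KO and 2091, 2053 and 2091 bp in WT (exact permutation p = 0.4).

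Among the inhibitors, Per1 and Per2 had lower regions alone, and Cry1 had both directions. Per1 (chromosome 11, 69095108 to 69109965, plus strand) had a region over its starts (69095251 to 69100650) that was lower, at -0.90 (FDR 0.00383) in the authors' deposited table. Its best window overlapped the printed Per1 start window, and 3 of 36 windows went down. Relative height of the strongest peak was 80.6, 96.6 and 80.0 in KO and 60.9, 92.3 and 87.9 in WT, which overlapped widely (exact permutation p = 0.8, n = 3 each). Covered length was 5929, 5616 and 5473 bp in KO and 6229, 5839 and 5859 bp in WT, and also overlapped (exact permutation p = 0.3).

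Per2 (chromosome 1, 91415977 to 91459351) was the weakest of the 10 genes. Peaks covered 647, 0 and 959 bp in KO, against 1423, 1967 and 2258 bp in WT (exact permutation p = 0.1, n = 3 each). KO replicate 2 had no peak at all. The strongest peak had relative heights of 10.8 and 13.5 in the other KO libraries and 19.3, 20.7 and 20.9 in WT, with no test. In each of these libraries its summit lay outside the Per2 span, in the flank over Hes6, a neighbouring transcription factor gene. Of the 3 Per2 regions, 2 lay in that flank, over Hes6, and were lower, at -1.11 (FDR 0.0139) and -0.81 (FDR 0.00625) in the authors' deposited table. Only the region at 91458751 to 91459350 lay in the Per2 span, at one of its ends. There 0 KO and 2 WT libraries had a peak, and the change was -0.89 (FDR 0.0117) in the authors' deposited table. For the gene span alone the difference in covered length was -301 bp (exact permutation p = 0.4), so most of the Per2 gap lay outside the gene span.

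Cry1 (chromosome 10, 85131700 to 85185054, minus strand) fell at its start and rose inside the gene. The start region (85183351 to 85186050), which holds the printed E-box and E'-box, was lower, at -0.93 (FDR 0.000374) in the authors' deposited table, with 7 of 18 windows down. Relative height there was 60.1, 55.5 and 58.7 in KO and 69.7, 81.3 and 81.5 in WT, without overlap. The inner region (85159651 to 85164300), with its best window 23.1 kb from the start, was higher by 0.81 (FDR 0.0109) in the authors' deposited table, with 12 of 31 windows up and 0 down. At that site, relative height was 49.2, 57.3 and 55.6 in KO and 36.1, 26.4 and 31.0 in WT, again without overlap. Not divided by coverage, the heights there overlapped, at 91, 131 and 107 fragments in KO and 144, 92 and 92 fragments in WT. In KO replicate 2 the inner peak was the taller one, while in all WT libraries the start peak was the taller one. The strongest peak per library was lower in KO, at a log2 difference of -0.40 ± 0.08 (SE, n = 3 each, exact permutation p = 0.1). Covered length did not separate the groups, at 10103, 12685 and 11695 bp in KO and 14714, 10012 and 9822 bp in WT (exact permutation p = 1.0). A small region beside the inner site (85158451 to 85158900) had peaks in 3 KO libraries and 1 WT library and was not called, at 0.51 (FDR 0.147) in the authors' deposited table.

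**Figure D3:**
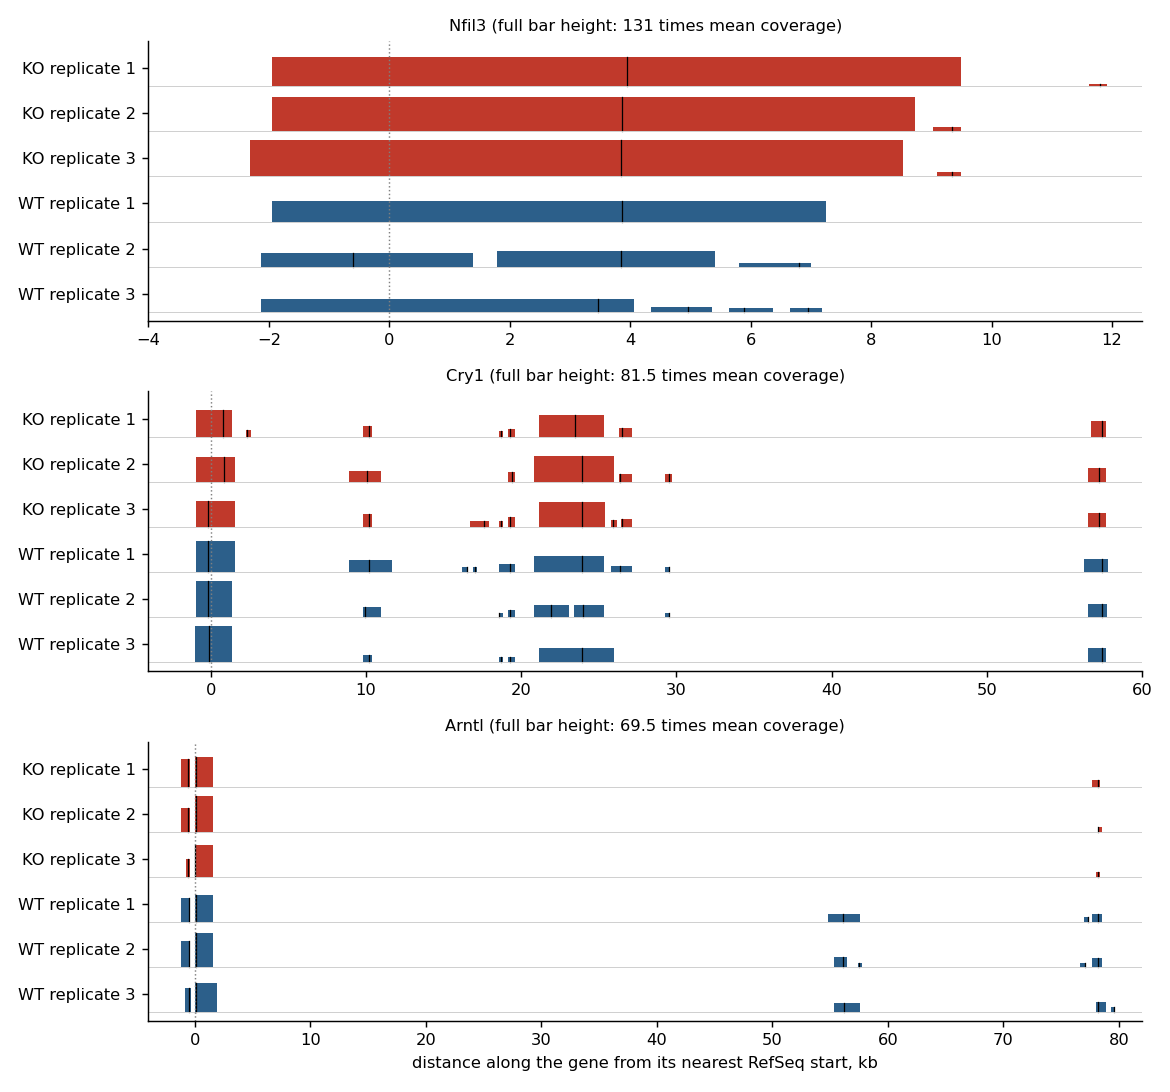
Peaks over Nfil3, Cry1 and Arntl in each library, KO above WT, drawn to scale against distance from the nearest RefSeq start in kb (dotted line at 0); bar height is relative height on a scale set per gene, and the black tick is the summit. The Nfil3 domain has 1 long peak in each KO library, beside a short one, and is 1 long peak in WT replicate 1 as well. The inner Cry1 peaks near 23 kb are taller in KO than in WT, and the Arntl peaks near 56 kb appear in WT libraries alone.

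Bhlhe40 (chromosome 6, 108660629 to 108666925), a repressor at E-boxes, had the strongest signal of the 10 genes and no called region. Peaks covered 15671, 15643 and 15642 bp of the gene and its flanks in KO and 15957, 15929 and 15929 bp in WT. The groups did not overlap (exact permutation p = 0.1, n = 3 each), and the difference of -286 bp came from a gap in the KO peaks past position 108668758 that the WT peaks spanned. With single-read peaks the difference was -243 bp (exact permutation p = 0.4). Relative height was 149, 156 and 173 in KO and 141, 141 and 137 in WT, higher in KO by 0.19 ± 0.06 on the log2 scale (SE, n = 3 each, exact permutation p = 0.1) but at a log2 difference of -0.59 without division and of -0.04 on division by the median height of the library. Its regions stood at -0.49 (FDR 0.091, 108655201 to 108660450) and 0.70 (FDR 0.25, 108660601 to 108674850, 95 windows) in the authors' deposited table. The best window behind the 0.70, at 108674551 to 108674700, lay past the gene and beyond its 5 kb flank. Of the 95 windows, 3 went up and 2 went down. Just beyond the 5 kb limit, 8526 bp from the span, the region at 108675451 to 108677850 had a peak in all 6 libraries and was higher by 0.96 (FDR 0.000128) in the authors' deposited table. At the same limit, the Per1 neighbour over Vamp2 began 5108 bp away and was not called, at -0.35 (FDR 0.487) in the authors' deposited table. The outermost region inside the limit was that of Sphk2 near Dbp, given above.

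In KO, the mean relative height of the strongest peak was 159 ± 12.2 for Bhlhe40, 146 ± 21.4 for Nr1d1, 122 ± 12.3 for Nfil3, 88.0 ± 5.46 for Nr1d2, 85.8 ± 9.41 for Per1, 66.6 ± 7.89 for Dbp, 62.6 ± 6.65 for Arntl, 58.7 ± 1.39 for Cry1 and 33.1 ± 5.33 for Clock (SD, n = 3 each). In WT it was 139 ± 2.33 for Bhlhe40, 91.5 ± 12.1 for Dbp, 83.2 ± 8.97 for Nr1d1, 81.1 ± 11.3 for Nr1d2, 80.4 ± 17.0 for Per1, 77.5 ± 6.76 for Cry1, 58.6 ± 13.4 for Nfil3, 57.0 ± 6.67 for Arntl and 37.1 ± 2.72 for Clock. Among these genes Bhlhe40 headed and Clock closed both orders. Per2 was left out because KO replicate 2 had no peak there. Its WT heights of 19.3, 20.7 and 20.9 lay below those of Clock. In KO the ranges of the libraries overlapped between Bhlhe40 and Nr1d1, between Nr1d1 and Nfil3, between Nr1d2 and Per1, and among Dbp, Arntl and Cry1. In WT each gene from Dbp to Arntl overlapped with its neighbours in that order, and Bhlhe40 and Clock stood apart. The WT level of Nfil3 lay at the 51.3 percentile of protein-coding genes with a peak in each library, that of Bhlhe40 at the 94.7 percentile and that of Clock at the 23.5 percentile.

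Among other genes of the same loops, Rora held most of the regions that were lower in KO. Of 21 such genes from a textbook list, 20 had a tested region: 10 had lower regions alone, 2 higher alone, 3 both and 5 neither in the authors' deposited table, against 63.6% of all genes with lower regions alone. Their 109 regions held 68 lower and 7 higher ones, with a median log2 fold change of -1.16 in the authors' deposited table, but 67 of these lay over Rora. Without Rora, 13 of 42 regions were lower and 6 higher, and the median was -0.45 in the authors' deposited table, against 46.3% lower, 12.7% higher and a median of -0.62 over all regions. Rora, which encodes the activator that competes with the REV-ERBs, was lower in 55 regions and higher in 1, with its region of lowest FDR at -2.72 (FDR 7.59e-29) in the authors' deposited table. Peaks over Rora covered 29429, 34813 and 34193 bp in KO, against 131985, 112528 and 119530 bp in WT. By lowest FDR the remaining genes of the authors' deposited table were Timeless (-1.51, FDR 2.44e-10), the casein kinase gene Csnk1e (-1.50, FDR 4.9e-09), the kinase gene Gsk3b (-1.61, FDR 2.75e-07), Npas2, a partner of BMAL1 (-1.43, FDR 1.41e-06), and the repressor gene Ciart (-1.49, FDR 1.57e-06). Gsk3b also had 2 higher regions and Npas2 1 in the authors' deposited table.

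**Figure D4:**
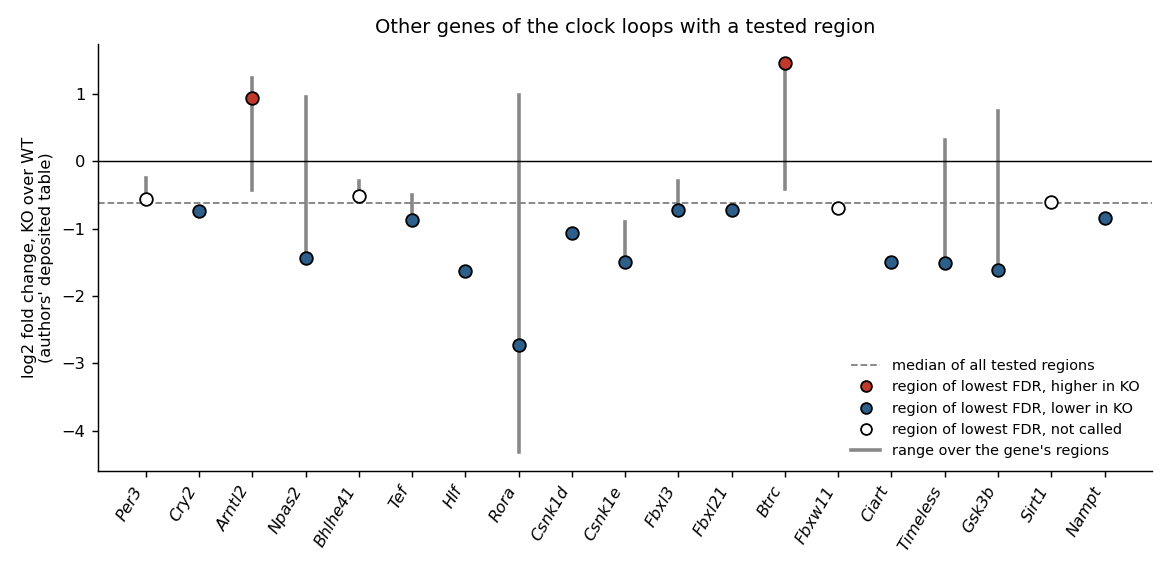
Log2 fold change, KO over WT (authors' deposited table), of the region of lowest FDR for other genes of the clock loops, with a grey line over the range of each gene's regions and a dashed line at the median of all tested regions, -0.62. Rora has the lowest point, at -2.72, and Arntl2 and Btrc are the genes whose point is a called region above 0.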

How the data were processed

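The authors called peaks separately in each ChIP library. Their deposited lists hold a score per peak, its fold over background (a ratio), and the -log10 of its p-value and q-value. The submitters' processing notes name MACS2 2.2.6, Bowtie2 2.3.5.1, cutadapt 2.8, deepTools 3.3.2 and bcl2fastq 2.20.0.422, with builds mm10 and GRCm38. For each of 40909 regions made of 150 bp windows, the authors' deposited table holds the log2 fold change of its best window, its p-value and its FDR, with no value per library. The sources used here do not give its program or library scaling, nor whether input served as control. Negative fold changes stand for lower in KO: of 2730 regions with peaks in 0 KO and 3 WT libraries, 99.9% were negative.

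Peaks called on paired-end fragments were used. The table holds no chromosomes, so 24128 regions were placed by the authors' list of significant regions, 16572 by joining windows under single-read peaks, which rebuilt 98.8% of the listed spans exactly, and 209 by their best window. Fragment heights were solved from the deposited fold and -log10 p-value (MACS2's Poisson tail), and came back within 0.01 of the deposited value for 100% of peaks, with 2 WT lists scaled by 0.89 and 0.9217. The method was tested on simulated data. Mean coverage is the lowest background value that 50 or more peaks had in common. The deposited log2 fold changes ran 0.49 above the log2 ratio of heights not divided by depth in 1309 regions (Pearson r = 0.993 across regions, which are not independent). The spread between libraries holds fragment counting error, which was not estimated separately.

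A region or peak belonged to a gene on an overlap of at least 1 bp, and the strongest peak was taken among those with their summit in the span or its 5 kb flanks. RefSeq GRCm38.p6 gave gene spans, names and start windows, without exons or introns. All 10 genes matched. Tests were two-sided exact permutation tests written out with numpy 2.4.6 (Python 3.11.15), and scipy 1.17.1 gave the Poisson tail. The genes, the other clock genes, the markers and the tests were chosen with earlier results of these data known. All 10 genes are named, and of the 21 other clock genes the 6 of lowest FDR past 0.05, Rora among them. A further clock gene and a marker in these lists are not reported here. Regions are named by lowest FDR, position at a gene end, opposite direction or presence in 1 genotype. Alternatives covered the FDR and fold limits, flanks, peak type and strength, height scaling, each library left out and a replicate block.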

Additional observations from a re-analysis of the deposited data

How the results depend on the processing

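With a minimum of 1 on the size of the log2 fold change as well, 4 lower and 1 higher region were left in the authors' deposited table (11 and 5 without it). At an FDR of 0.01 the higher regions numbered 2, and for gene spans without flanks the lower ones numbered 7. The table gives no value per library, so leaving out a library and the replicate block could not be run on it. Leaving out each library in turn gave 5 to 6 genes with KO below WT in covered length and 1 to 2 with KO above, the 2 without WT replicate 1, when Cry1 joined Nfil3. In relative height it gave 2 to 3 genes below and 3 to 4 above. Heights not divided by coverage gave 7 genes below and 0 above. For peaks within 2 kb of a RefSeq start, an alternative chosen after seeing the data, 1 gene (Nr1d1) lay above, since Bhlhe40 has no listed start and Nfil3 no summit that close in every library. With the strongest peak taken by overlap wherever its summit lay, also chosen after seeing the data, 1 gene (Cry1) lay below and 4 above, and the Dbp difference turned to 0.21. The region of lowest FDR over Bhlhe40 turned to 0.70 for the span without flanks and to 0.96 with flanks of 10 kb in the authors' deposited table. The Bhlhe40 height difference turned to -0.59 without division and to -0.04 on division by the median height. Libraries of equal replicate number did not deviate together (r of -0.02, -0.04 and 0.00 over 12483 genes). The labels do not say whether such libraries share more than a number, and with 3 libraries per group these r values cannot settle it. For the replicate block, libraries were paired by number and an exact test flipped the signs of the pair differences, which reaches no p below 0.25. There, covered length was lower in all 3 pairs for 6 genes and higher for 1, and relative height lower for 3 and higher for 4. The causes of these changes were not tested. Depth limits low peaks: KO libraries had 0.58 of the WT coverage, so an absent KO peak does not show absent acetylation.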

Other observations

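Of the 36 loci formed by joining overlapping peaks over the 10 genes, 20 had a peak in all 6 libraries, and most of the others were low. Nr1d2 had a low inner site 13.5 kb from its start in no KO library and in WT replicates 1 and 3, at relative heights of 7.27 and 7.74. Arntl had one 77.0 kb from its start in no KO library and in WT replicates 1 and 2, at 9.53 and 6.90. Cry1 had one 29.5 kb from its start at 17.5 in KO replicate 2 and at 10.0 and 8.91 in WT replicates 1 and 2. Clock had a peak inside the gene in 1 library, KO replicate 3, at 8.84. These values were not tested.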
